A study of Homo sapiens with 2 samples.

Results

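The bone morphogenetic protein (BMP) pathway and its ID target genes were examined in ATAC-seq libraries of totipotent blastomere-like cells (hTBLC) and of primed cells. The set held 10 of the 19970 protein-coding genes of the gene table: the ligands BMP2, BMP4 and BMP7, the receptor BMPR1A, the signal transducers SMAD1 and SMAD5, the inhibitor SMAD6, and the targets ID1, ID2 and ID3. The peaks belonging to a gene were those whose summit lay inside its body or within 50 kb of it on hg38, which gave 273 of 299673 peaks in the hTBLC library and 266 of 295753 in the primed library. ATAC-seq uses a transposase that inserts sequencing adapters into open DNA, so that a peak marks accessible chromatin. Each library was made from 50000 living cells of WIBR3, a human embryonic stem cell line. The hTBLC group held 1 library of cells that, per the study title, were obtained by repressing the spliceosome, and the primed group held 1 library of the conventional embryonic stem cell state. Both samples carry the cell type label hESC and differ in their titles, and the sources used here name no agent, dose or time for the treatment. The design asks which chromatin is more open or more closed between these states.

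BMP ligands are secreted dimers that bind complexes of type I and type II receptor kinases, of which BMPR1A is a type I member. The activated type I receptor phosphorylates SMAD1 and SMAD5, which enter the nucleus with SMAD4 and bind DNA at the genes they control. The ID genes, which encode inhibitors of basic helix-loop-helix transcription factors, are textbook direct targets, and SMAD6 is a target that acts back on the pathway as an inhibitor. In human embryonic stem cells, BMP4 is commonly used to drive cells out of pluripotency towards mesoderm and extra-embryonic fates.

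Because SMAD proteins act on DNA, the sequences directly before the 5′ ends of the ID genes and of SMAD6 are shown, taken from RefSeq on GRCh38.p14. Each is 250 bases long, ends at the base before the transcript start, and lies under a called region in both libraries for at least part of its length. Capitals mark the SMAD-type elements GGCGCC and GGAGCC on either strand.
ID1 (chr20:31605039-31605288, plus strand): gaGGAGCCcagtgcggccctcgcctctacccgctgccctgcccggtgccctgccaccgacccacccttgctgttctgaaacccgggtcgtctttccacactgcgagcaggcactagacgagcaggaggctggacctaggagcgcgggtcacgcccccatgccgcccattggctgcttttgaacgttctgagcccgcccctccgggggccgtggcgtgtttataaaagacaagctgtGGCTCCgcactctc
ID2 (chr2:8681806-8682055, plus strand): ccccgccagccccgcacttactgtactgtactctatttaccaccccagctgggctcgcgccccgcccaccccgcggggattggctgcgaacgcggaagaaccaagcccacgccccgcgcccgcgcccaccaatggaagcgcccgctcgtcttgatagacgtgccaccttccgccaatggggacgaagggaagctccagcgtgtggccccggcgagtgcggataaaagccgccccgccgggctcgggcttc
ID3 (chr1:23559502-23559751, minus strand): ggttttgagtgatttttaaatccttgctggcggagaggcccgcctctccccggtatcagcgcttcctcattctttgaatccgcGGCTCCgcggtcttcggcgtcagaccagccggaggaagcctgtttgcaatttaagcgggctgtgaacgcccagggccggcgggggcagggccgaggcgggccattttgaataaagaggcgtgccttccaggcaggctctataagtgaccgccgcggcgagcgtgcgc
SMAD6 (chr15:66701986-66702235, plus strand): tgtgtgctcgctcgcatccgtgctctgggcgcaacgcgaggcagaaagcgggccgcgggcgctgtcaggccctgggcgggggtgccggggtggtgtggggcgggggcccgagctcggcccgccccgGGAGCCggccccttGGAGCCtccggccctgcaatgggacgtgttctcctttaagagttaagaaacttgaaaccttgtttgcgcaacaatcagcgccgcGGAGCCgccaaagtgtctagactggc
GGAGCC, or GGCTCC on the other strand, occurred 2 times before ID1, starting 248 and 14 bases before the transcript start. It occurred once before ID3, 167 bases before the start, and 3 times before SMAD6, at 124, 110 and 26 bases. The ID2 sequence held neither element in this window. GGAGCC was present in 35% and the palindrome GGCGCC in 20.7% of 22131 windows of this length before protein-coding transcript starts. A shorter SMAD box, GTCTG or CAGAC, was found before ID3 at 147 bases and not in the other 3 windows, against 37.3% of all windows. No match overlapped a match of another element. These are letter matches and not measured binding.

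A pileup is the number of reads or fragments stacked at a peak summit, and here it was recovered from each peak's fold and −log10 p-value in the authors' lists. Within a library, peaks that overlap were joined to a region, and a region counts as shared where at least 1 bp of it lies under a region of the other state. All others are hTBLC-only or primed-only. The lists of both libraries were of similar size, with median peak pileups of 17 in hTBLC and 18 in primed. The peak ranks end at exactly 300000 in hTBLC and at 296005 in primed. Whether the hTBLC list was cut at that number was not tested, so the list sizes do not compare numbers of open sites. Background levels were 1.96 and 1.79, and every ratio of hTBLC to primed pileup was scaled by their quotient of 1.09. Since each state has 1 library, replicate spread is unknown and the conditions were not tested against each other. The intervals given are exact Poisson intervals for pileups, exact binomial intervals for ratios and Wilson intervals for shares, at 95%, and they cover counting error only. A lower pileup can come from fewer cells with an open site or from less opening per cell, and these cannot be told apart. The identity of the cells was checked at 5′ ends with a known strand. All 5 such hESC markers had a region in both libraries. The level differed at some: NANOG had 21 in hTBLC and 35 in primed, a ratio of 0.55 (0.30 to 0.97), and SOX2 had 85 and 116, a ratio of 0.67 (0.50 to 0.89). Without scaling for background, the interval of NANOG included 1. LIN28B, with 107 in hTBLC and 75 in primed, had a ratio of 1.30 (0.96 to 1.77). ZIC2, with 68 and 49, had a ratio of 1.27 (0.87 to 1.87). The strongest regions of DNMT3B, with 85 in hTBLC and 59 in primed, did not overlap. Of 5 such markers of the 8-cell stage 1 had a region in both, 2 in primed alone and 2 in neither. Trophectoderm markers with a known strand numbered 3, of which CDX2 and GATA3 had a region in both and GCM1 in neither, and GATA3 had a ratio of 1.53 (1.12 to 2.10). Fibroblast markers with a known strand numbered 2, of which TWIST2 had a region in both and POSTN in hTBLC alone.

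Positions are given on hg38. BMP2 spans 6767686 to 6780246 of chromosome 20 on the plus strand, and BMP7 spans 57168753 to 57266641 of the same chromosome on the minus strand. BMP4 spans 53949736 to 53956891 of chromosome 14 on the minus strand. BMPR1A spans 86755763 to 86932844 of chromosome 10, SMAD1 145480770 to 145559176 of chromosome 4, SMAD5 136132845 to 136182733 of chromosome 5 and SMAD6 66702236 to 66782849 of chromosome 15, all on the plus strand. ID1 spans 31605289 to 31606510 of chromosome 20 and ID2 8682056 to 8684461 of chromosome 2, both on the plus strand, and ID3 spans 23557926 to 23559501 of chromosome 1 on the minus strand. The bodies of the ID genes are 1.22, 2.41 and 1.58 kb long, against 49.9 to 177 kb for BMP7, the receptor and the SMAD genes, so the windows of the ID genes are mostly flanking DNA.

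The 5′ ends of all 10 genes were accessible in both states. Every gene had a region within 1 kb of a 5′ end in both lists, as did 80.4% of the 15813 protein-coding genes with a known strand. None had one in hTBLC alone or in primed alone, against 2.12% and 2.77% of those genes. The strongest regions of both libraries overlapped at 8 of the 10 genes, and their scaled ratios ranged from 0.81 at ID3 to 1.30 at ID1, with a median of 1.06. None of the 8 was past 1.5-fold, while of 11918 genes measured in the same way 9.41% were higher and 11.2% lower in hTBLC by that much, 20.6% in all. With scaling for background, the interval of each of the 8 ratios included 1. This depended on the scaling at ID1, where the unscaled ratio was 1.42 (1.06 to 1.91), while the unscaled intervals of the other 7 genes also included 1. The outermost start of BMP4 and a region just before ID1, both described further on, had scaled intervals that exclude 1.

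**Figure D1:**
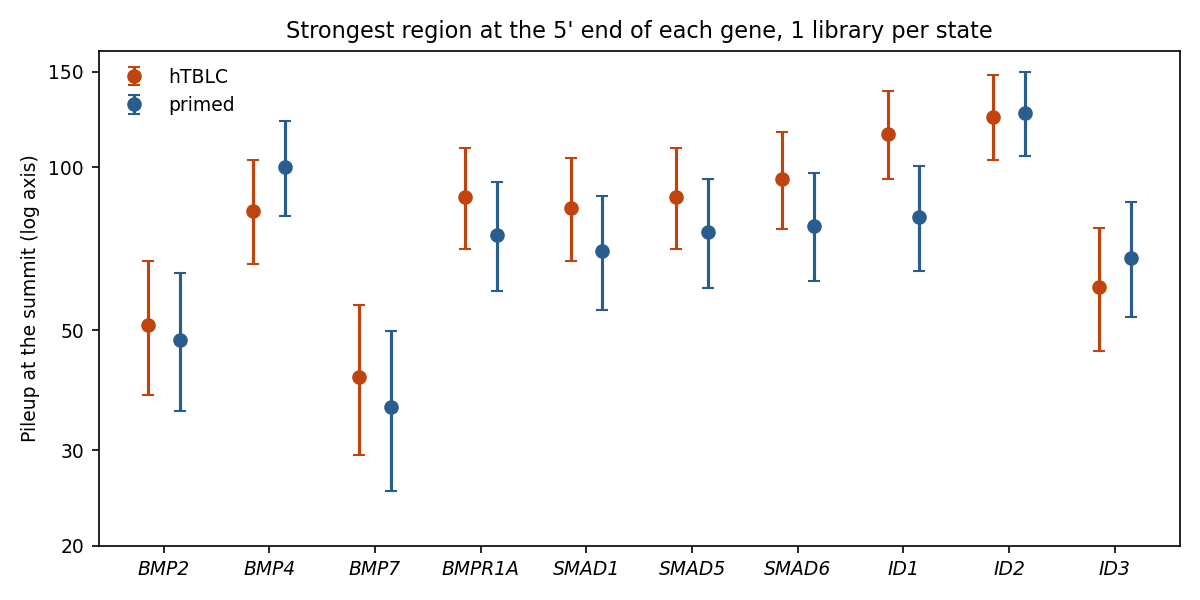
Pileup at the summit of the strongest region within 1 kb of a 5′ end (vertical axis, log scale) for each gene in the hTBLC library (left point) and the primed library (right point). Bars are exact Poisson 95% intervals, and they overlap at every gene: the pileups run from 41 to 124 in hTBLC and from 36 to 126 in primed. At BMP4 and BMP7 the strongest regions of the libraries lay at different places, so their bars do not compare the same site. At SMAD1 the regions overlapped, but their summits lay 1010 bp apart. At the outermost BMP4 start the intervals do not overlap, with 57 (43.2 to 73.9) in hTBLC and 100 (81.4 to 122) in primed.

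Among the ligands, the 5′ end of BMP2 had a pileup of 51 (38 to 67.1) in hTBLC and 48 (35.4 to 63.6) in primed, a ratio of 0.97 (0.64 to 1.47). The BMP7 start was weaker, and its overlapping regions had pileups of 40 in hTBLC and 36 in primed, a ratio of 1.01 (0.63 to 1.64). The strongest hTBLC region there was another one, 862 bp into the gene, with a pileup of 41 and no primed counterpart. With −log10 q-values of 9.38 in hTBLC and 9.56 in primed, BMP7 had the least certain 5′ end of the 10 genes.

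BMP4, which has several transcript starts under separate regions, had starts that differed from each other. At the outermost start, on chromosome 14 at 53955989 to 53957152, the pileup was 57 (43.2 to 73.9) in hTBLC and 100 (81.4 to 122) in primed, a ratio of 0.52 (0.37 to 0.73). At the innermost start, at 53952933 to 53953787, it was 83 (66.1 to 103) in hTBLC and 56 (42.3 to 72.7) in primed, a ratio of 1.35 (0.95 to 1.94). There a single hTBLC region lay over 2 primed ones, of which the stronger was used, and the summits were 14 bp apart. The outer region was thus the stronger one in primed cells and the inner region the stronger one in hTBLC. The intervals of the 2 ratios do not overlap. A further hTBLC-only region lay 1.42 kb inside the gene from the innermost start, with a pileup of 47 (34.5 to 62.5). The outermost start lies within the body of the predicted gene LOC124903317, so the outer region may belong to either.

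For the receptor BMPR1A, the 5′ pileup was 88 (70.6 to 108) in hTBLC and 75 (59.0 to 94) in primed, a ratio of 1.07 (0.78 to 1.48). The region was wide in both libraries, 1501 bp and 1428 bp, and its summit lay 614 bp inside the gene in hTBLC and 601 bp inside in primed. SMAD1, with several starts under a single region of 1504 bp in hTBLC and 1486 bp in primed, had pileups of 84 and 70, a ratio of 1.10 (0.79 to 1.53). Its summit lay 3 bp past 1 start in hTBLC and 55 bp before another in primed. These summits were 1010 bp apart, so the SMAD1 ratio does not compare the same start. SMAD5 had pileups of 88 in hTBLC and 76 in primed, a ratio of 1.06 (0.77 to 1.46). SMAD6 had 95 in hTBLC and 78 in primed, a ratio of 1.11 (0.82 to 1.52), in the region that covers the sequence printed above. The genes from BMPR1A to SMAD6 thus had scaled ratios between 1.06 and 1.11.

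The ID genes spanned nearly the whole range of the set, with ID2 the highest of the 10 genes in both states. ID1 had a pileup of 115 (94.9 to 138) in hTBLC and 81 (64.3 to 101) in primed, a ratio of 1.30 (0.97 to 1.74). A second region 0.944 kb before the ID1 start was also higher in hTBLC, with 109 (89.5 to 131) in hTBLC and 72 (56.3 to 90.7) in primed, a ratio of 1.38 (1.02 to 1.89). ID2 had 124 (103 to 148) in hTBLC and 126 (105 to 150) in primed, a ratio of 0.90 (0.70 to 1.16). Its region also covers the start of the antisense gene ID2-AS1, 193 bp from that of ID2 on the other strand, and ID1 shares its region with the start of LOC105372588, 94 bp away. ATAC-seq does not tell these starts apart. ID3 had 60 (45.8 to 77.2) in hTBLC and 68 (52.8 to 86.2) in primed, a ratio of 0.81 (0.56 to 1.16). The ratios of the 3 targets at their strongest 5′ regions thus lay on both sides of 1, each with a scaled interval that includes 1.

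Most matched regions near the 10 genes, 109 of 120, lay away from the 5′ ends, and so did most differences between the states. Lower signal in hTBLC was the more frequent direction, as it was over all protein-coding genes. Of 120 regions near the 10 genes that matched 1 to 1 between the libraries, 28 (23.3%) were at least 1.5-fold lower in hTBLC with an interval that excludes 1, and 3 (2.50%) were at least 1.5-fold higher. Over all protein-coding genes these shares were 17.7% and 9.22% of 103663 regions. Without scaling for background, 23 regions near the 10 genes were lower and 9 were higher, against shares of 14% and 12.2% over all genes. The lower share thus lay above that of all genes under both scalings and the higher share below it, by a few regions each. The median scaled ratio near the 10 genes was 0.91, the same as that over all genes to 2 decimals. Without scaling, the median was 0.99 near the 10 genes and 1 over all matched regions of the libraries. The shift of the medians below 1 thus depended on the scaling. Leaving out the regions at the 5′ ends of the 10 genes, 27 of 109 were lower and 3 were higher. The shares over all regions away from annotated 5′ ends were 18.6% and 9.26%. By role, 7 of 25 matched regions were lower near the ligands, 6 of 26 near BMPR1A, 6 of 17 near SMAD1 and SMAD5, 4 of 16 near SMAD6 and 5 of 36 near the ID genes. Of the 3 that were higher, 2 were near the ID genes and 1 near SMAD6.

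**Figure D2:**
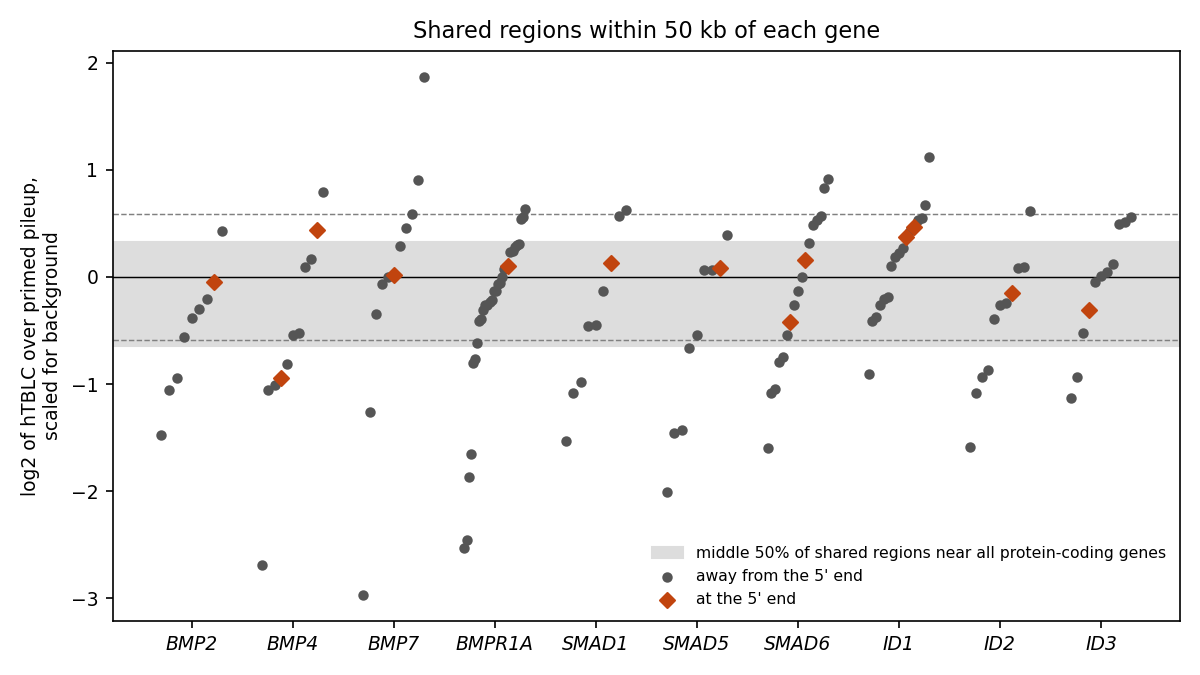
Log2 of the scaled ratio of hTBLC to primed pileup (vertical axis) at each shared region within 50 kb of each gene, with overlapping regions of both libraries joined and points within a gene sorted by value. Diamonds are regions at a 5′ end, circles are all others, and dashed lines mark 1.5-fold. The grey band is the middle 50% of regions near all protein-coding genes that matched 1 to 1, without joining. Of 135 points, 30 lie 1.5-fold lower and 5 lie 1.5-fold higher with an interval that excludes 1, and of the diamonds only the outer BMP4 start is among them. Shares over all genes were not computed for joined regions, so these counts have no direct comparison.

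Around the ligands the largest differences were single distal sites with little signal in hTBLC. In the body of BMP7, 34.4 kb from its start on chromosome 20 at 57231538 to 57232474, the pileup was 7 (2.81 to 14.4) in hTBLC and 50 (37.1 to 65.9) in primed, a ratio of 0.13 (0.05 to 0.28). Downstream of BMP4, on chromosome 14 at 53929680 to 53930355, it was 8 (3.45 to 15.8) in hTBLC and 47 (34.5 to 62.5) in primed, a ratio of 0.16 (0.06 to 0.33). These are the lowest ratios among the 135 shared sites near the 10 genes. A site 25.8 kb upstream of BMP4 had 19 in hTBLC and 35 in primed, a ratio of 0.50 (0.27 to 0.89).

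BMP2 had lower hTBLC signal on both sides. The pileup 31.5 kb upstream was 29 in hTBLC and 51 in primed, a ratio of 0.52 (0.32 to 0.83), and a site 52.1 kb downstream of its start had 15 and 38, a ratio of 0.36 (0.18 to 0.67). Of the 8 regions of BMP2 that matched 1 to 1, 7 had a ratio below 1, in 2 of them with an interval that excludes 1. BMP4 had a ratio below 1 at 7 of 9, in 4 of them with such an interval, and BMP7 at 3 of 8, in 1 of them with such an interval. Near all protein-coding genes, 57.8% of matched regions had a scaled ratio below 1, a share that depends on the scaling.

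BMP7 also held sites of the opposite direction. A site 16.2 kb upstream of its start, at 57282589 to 57283421, had a pileup of 44 (32.0 to 59.1) in hTBLC and 11 (5.49 to 19.7) in primed, a ratio of 3.65 (1.86 to 7.84). It was a single hTBLC region over 2 small primed ones. A site 15.1 kb inside the gene had 37 in hTBLC and 18 in primed, a ratio of 1.88 (1.04 to 3.50). This site too was a single hTBLC region over 2 primed ones, with summits 410 bp apart. The BMP7 locus thus held distal sites of both directions around a 5′ end with a ratio near 1.

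BMPR1A had a run of sites with lower hTBLC signal deep in its 177 kb body. Between 68.6 and 109 kb from the start, 6 shared sites were at least 1.5-fold lower in hTBLC with scaling for background. The most extreme had 7 (2.81 to 14.4) in hTBLC and 37 (26.1 to 51.0) in primed, a ratio of 0.17 (0.06 to 0.39), on chromosome 10 at 86824072 to 86824514. The next had 7 in hTBLC and 35 in primed, a ratio of 0.18 (0.07 to 0.42), at 86853743 to 86854278. A pair of neighbouring sites 101 and 102 kb from the start had 9 and 16 in hTBLC against 30 and 46 in primed. The site at 109 kb had 42 and 59, a ratio of 0.65 (0.43 to 0.98), and was not past 1.5-fold without scaling. The same stretch held hTBLC-only regions at 78.4, 90.6 and 107 kb, with pileups of 12, 10 and 20. It also held primed-only regions at 74.5, 85.9 and 96.0 kb, with pileups of 25, 12 and 14. Strong sites in the same gene body were level. One 39.8 kb from the start had 96 in hTBLC and 82 in primed, a ratio of 1.07 (0.79 to 1.45), and one 113 kb from it had 107 and 102, a ratio of 0.96 (0.72 to 1.27). No shared site near BMPR1A was 1.5-fold higher in hTBLC with an interval excluding 1. Its window also holds LDB3, MMRN2, SNCG, ADIRF and LOC124902474, but the 6 sites lie inside BMPR1A itself.

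Near the signal-transducing SMADs the lower sites were inside SMAD1 and beyond the 3′ end of SMAD5. In SMAD1 they lay 30.4 and 42.8 kb from the nearest start, with 15 and 11 in hTBLC against 29 and 29 in primed, and ratios of 0.47 (0.24 to 0.91) and 0.35 (0.16 to 0.71). Near SMAD5 the lowest ratio, 0.25 (0.10 to 0.53), was 95.7 kb from the start, with 9 in hTBLC and 33 in primed. A second site, 83.6 kb from it, had 12 in hTBLC and 30 in primed, a ratio of 0.37 (0.17 to 0.73), and one 97.5 kb from it had 11 and 27. A strong site 70.1 kb from the start, outside TRPC7, had 120 (99.5 to 143) in hTBLC and 174 (149 to 202) in primed, a ratio of 0.63 (0.49 to 0.80). The sites at 83.6, 95.7 and 97.5 kb lie within the body of TRPC7, a calcium channel gene, part of whose body lies in the window.

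Near SMAD6, 1 shared site was at least 1.5-fold higher in hTBLC with an interval excluding 1, while none near SMAD1 or SMAD5 was. That site, 101 kb from its start and beyond its 3′ end from 66803126 to 66803737 of chromosome 15, had a pileup of 122 (101 to 146) in hTBLC and 59 (44.9 to 76.1) in primed, a ratio of 1.89 (1.37 to 2.62). On the other side, 44.6 kb upstream, a site had 26 (17.0 to 38.1) in hTBLC and 72 (56.3 to 90.7) in primed, a ratio of 0.33 (0.20 to 0.52). The site 87.0 kb from the start, with 15 in hTBLC and 29 in primed, was lower as well, at 0.47 (0.24 to 0.91).

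Of the 17 regions of ID1 that matched 1 to 1, 11 had a ratio above 1, in 4 of them with an interval that excludes 1, and 6 had a ratio below 1, in 1 of them with such an interval. The median of the 17 was 1.17. The site with the highest hTBLC pileup near any of the 10 genes lay 32.3 kb upstream of ID1, from 31572467 to 31573496 of chromosome 20, and its pileup was 234 (205 to 266) in hTBLC and 134 (112 to 159) in primed, a ratio of 1.59 (1.28 to 1.99). It lies between ID1 and HM13, which encodes a signal peptide peptidase, and which gene it serves was not measured. In primed, the SMAD5 site with 174 was higher than it. A site 29.1 kb downstream had 31 in hTBLC and 13 in primed, a ratio of 2.18 (1.11 to 4.53). The single lower site, 3.33 kb from the ID1 start, had 41 (29.4 to 55.6) in hTBLC and 70 (54.6 to 88.4) in primed, a ratio of 0.53 (0.35 to 0.80).

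Around ID2 and ID3 no shared site was 1.5-fold higher in hTBLC with an interval excluding 1. ID2 had a site 37.0 kb upstream with 19 (11.4 to 29.7) in hTBLC and 52 (38.8 to 68.2) in primed, a ratio of 0.33 (0.19 to 0.57), and one 5.84 kb upstream with 31 and 60, a ratio of 0.47 (0.30 to 0.74). Its strongest neighbour, 3.15 kb upstream, was level, with 139 in hTBLC and 120 in primed. ID3 had adjacent sites of opposite direction beyond its 3′ end. The one 3.35 kb from the start had 60 (45.8 to 77.2) in hTBLC and 105 (85.9 to 127) in primed, a ratio of 0.52 (0.37 to 0.72), and the one 4.40 kb from it had 110 (90.4 to 133) in hTBLC and 68 (52.8 to 86.2) in primed, a ratio of 1.48 (1.08 to 2.03). A further site 14.6 kb away had 30 in hTBLC and 60 in primed, a ratio of 0.46 (0.28 to 0.72).

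Regions present in 1 library alone were about equally frequent in both directions over the 10 genes. Near them lay 211 hTBLC and 213 primed regions, of which 139 (65.9%) and 147 (69.0%) were shared. The remaining 72 and 66 were library-only, a class that held 35.9% of hTBLC and 37.1% of primed regions near all protein-coding genes. Of these 138 regions, 52.2% (43.9 to 60.3) were hTBLC-only, against 48.9% near all protein-coding genes. They were weak, with median pileups of 10 in hTBLC and 13 in primed. Those with a −log10 q of at least 10 numbered 9 in hTBLC and 7 in primed, and over all genes 43.4% of such regions were hTBLC-only. With peaks under a −log10 q of 5 left out of both lists, 28 hTBLC-only and 40 primed-only regions remained near the 10 genes.

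By role, the split was even for the ligands, with 20 hTBLC-only and 21 primed-only regions, for BMPR1A with 12 and 13, for SMAD1 and SMAD5 with 14 and 15, and for SMAD6 with 9 and 11. For ID1, ID2 and ID3 together it was 17 against 6, a share of 73.9% (53.5 to 87.5). ID1 had 6 and 2, ID2 had 7 and 1, and ID3 had 4 and 3. This count depended on the threshold: with peaks under a −log10 q of 10 left out it was 5 and 7, a share of 41.7%. Counting only regions with an ID gene as the nearest gene, it was 10 and 1. Within the other roles, BMP4 with 2 and 5 and SMAD1 with 5 and 9 had more primed-only regions, and SMAD5 with 9 and 6 had more hTBLC-only regions.

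**Figure D3:**
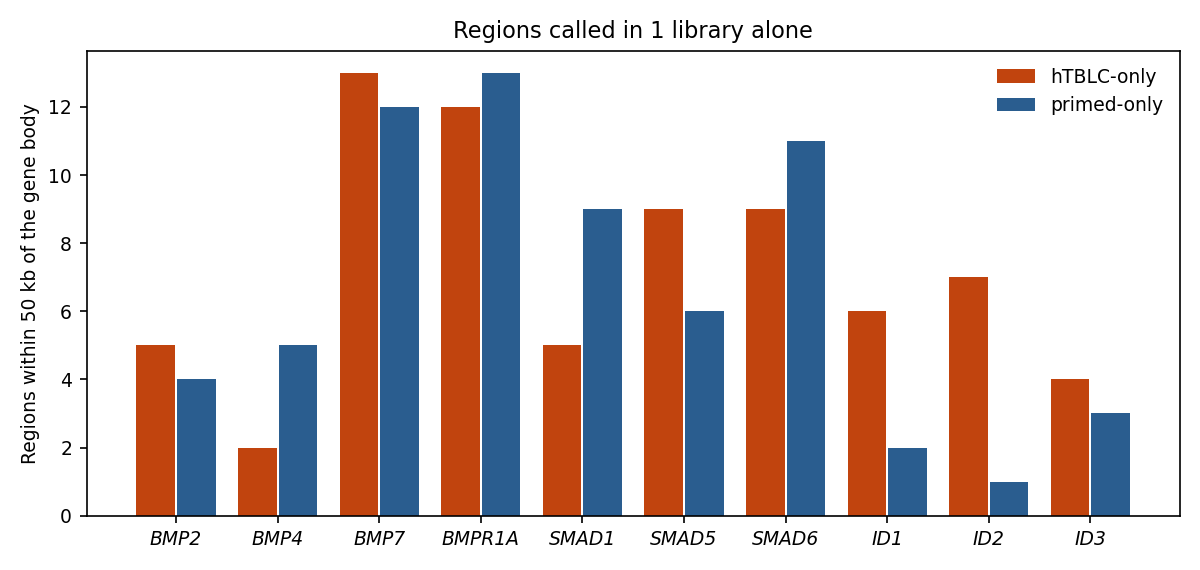
Number of regions within 50 kb of each gene body (vertical axis) that were called in the hTBLC library alone (left bars) or in the primed library alone (right bars). ID1 with 6 against 2 and ID2 with 7 against 1 have the highest hTBLC-only shares, and BMP4 with 2 against 5 has the lowest.

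The strongest library-only region of the set was an hTBLC-only site downstream of SMAD1. It lay 92.0 kb from the nearest start (chromosome 4, 145574445 to 145575044) and had a pileup of 69 (53.7 to 87.3), a fold enrichment of 17.7 in the authors' list and a −log10 q of 65.3. No primed region touched it. SMAD5 had its strongest hTBLC-only region 31.1 kb upstream, with a pileup of 34 (23.5 to 47.5), next to another with 24. ID2 had a comparable pair, 28.2 and 25.6 kb upstream, with pileups of 33 (22.7 to 46.3) and 24 (15.4 to 35.7). BMP2 had 27 at 44.2 kb and 21 at 43.4 kb downstream of its start, and BMP7 had 32 (21.9 to 45.2) at its 3′ end. The strongest hTBLC-only regions of ID3, ID1, SMAD6 and BMPR1A were weaker or less certain, with −log10 q between 4.79 and 8.51.

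Of the primed-only regions, the strongest pair flanked BMP7. One lay 24.6 kb upstream, from 57290929 to 57291373 of chromosome 20, and reached a pileup of 48 (35.4 to 63.6) and a −log10 q of 36.2. The other lay beyond the 3′ end, at 57158978 to 57159881, with a pileup of 44 (32.0 to 59.1) and a −log10 q of 30.9. SMAD6 had one of 27 (17.8 to 39.3) at 125 kb from its start, and BMPR1A one of 25 (16.2 to 36.9) at 74.5 kb, among its lower shared sites, and one of 23 (14.6 to 34.5) beyond its 3′ end. ID3 had one of 39 (27.7 to 53.3) that lay 6.91 kb upstream, next to an hTBLC-only region of 22 (13.8 to 33.3) that lay 8.85 kb upstream, and another of 18 (10.7 to 28.4) that lay 37.8 kb from the start beyond the 3′ end. The strongest primed-only regions of BMP2, BMP4, SMAD1, SMAD5, ID1 and ID2 had −log10 q values from 2.32 to 9.30.

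**Figure D4:**
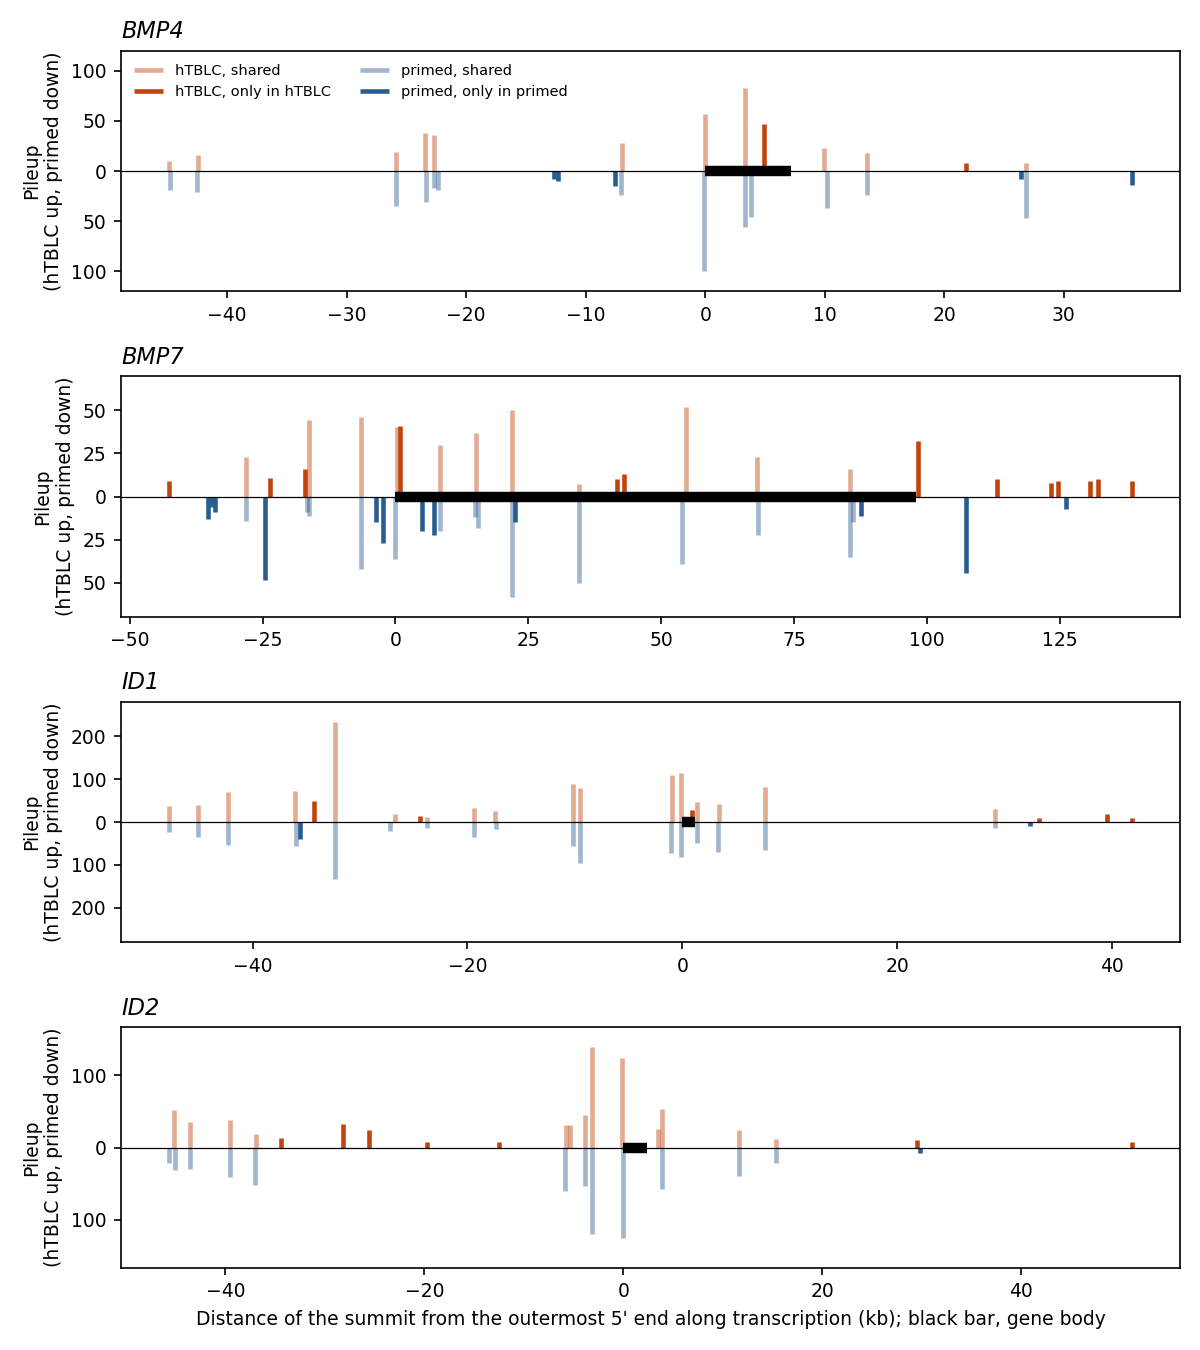
Pileup of every region near BMP4, BMP7, ID1 and ID2 (vertical axes, hTBLC upward, primed downward) against the distance of its summit from the outermost 5′ end in kb (horizontal axes), with the gene body as a black bar. Dark lines are regions of 1 library alone, such as the primed-only regions with pileups of 48 and 44 on both sides of BMP7, and pale lines are shared regions, such as the ID1 site with 234 in hTBLC and 134 in primed.

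Other genes of the pathway, 56 in all, mostly had a 5′ region in both states, and some of these regions differed in level. A 5′ end was known for 45 of them: 38 had a region there in both libraries, 2 in hTBLC alone, 1 in primed alone and 4 in neither, the last against 14.7% of all genes. The strongest regions overlapped at 27. With intervals that exclude 1, 5 were at least 1.5-fold higher and 4 at least 1.5-fold lower in hTBLC, and over all genes these classes held 8.63% and 9.5%. Both counts are larger shares of the 27 than that, by a few genes each. Without scaling, 6 were higher and 2 were lower. The median ratio over the 27 was 1.0, with 1.02 over all genes. Near the 56 genes lay 325 hTBLC-only and 345 primed-only regions, a share of 48.5% (44.7 to 52.3).

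Among receptors, ACVR1, a type I receptor for BMPs, had a 5′ pileup of 342 (307 to 380) in hTBLC and 174 (149 to 202) in primed, a ratio of 1.80 (1.49 to 2.17). ENG, which encodes the co-receptor endoglin, had 19 in hTBLC and 33 in primed, a ratio of 0.53 (0.28 to 0.95). SKIL, which encodes the SMAD co-repressor SnoN, had the largest ratio of the list, 2.12 (1.69 to 2.67), with 260 (229 to 294) in hTBLC and 112 (92.2 to 135) in primed. The ligand gene BMP8A had 32 and 50, a ratio of 0.58 (0.36 to 0.93). Without scaling for background, the intervals of ENG and BMP8A included 1.

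The secreted antagonists went in both directions. FST, which encodes follistatin, had 54 in hTBLC and 29 in primed, a ratio of 1.70 (1.06 to 2.77), and TWSG1, which encodes twisted gastrulation, had 107 and 60, a ratio of 1.63 (1.18 to 2.27). CER1, which encodes the BMP and NODAL antagonist cerberus, had 69 (53.7 to 87.3) in hTBLC and 113 (93.1 to 136) in primed, a ratio of 0.56 (0.41 to 0.76). CHRDL1, which encodes a chordin-like protein, had 64 (49.3 to 81.7) and 118 (97.7 to 141), a ratio of 0.50 (0.36 to 0.68). At CHRD, the chordin gene, only the primed library had a 5′ region, and its pileup was 29 (19.4 to 41.6). At the ligand gene GDF2 and the antagonist gene DAND5 only the hTBLC library had one, and the pileups were low, 9 (4.12 to 17.1) and 11 (5.49 to 19.7). The transcription factor gene GATA3 had 112 in hTBLC and 67 in primed at its strongest start, a ratio of 1.53 (1.12 to 2.10), and ID4, the remaining ID gene, had a ratio of 1.0 (0.81 to 1.23).

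**Figure D5:**
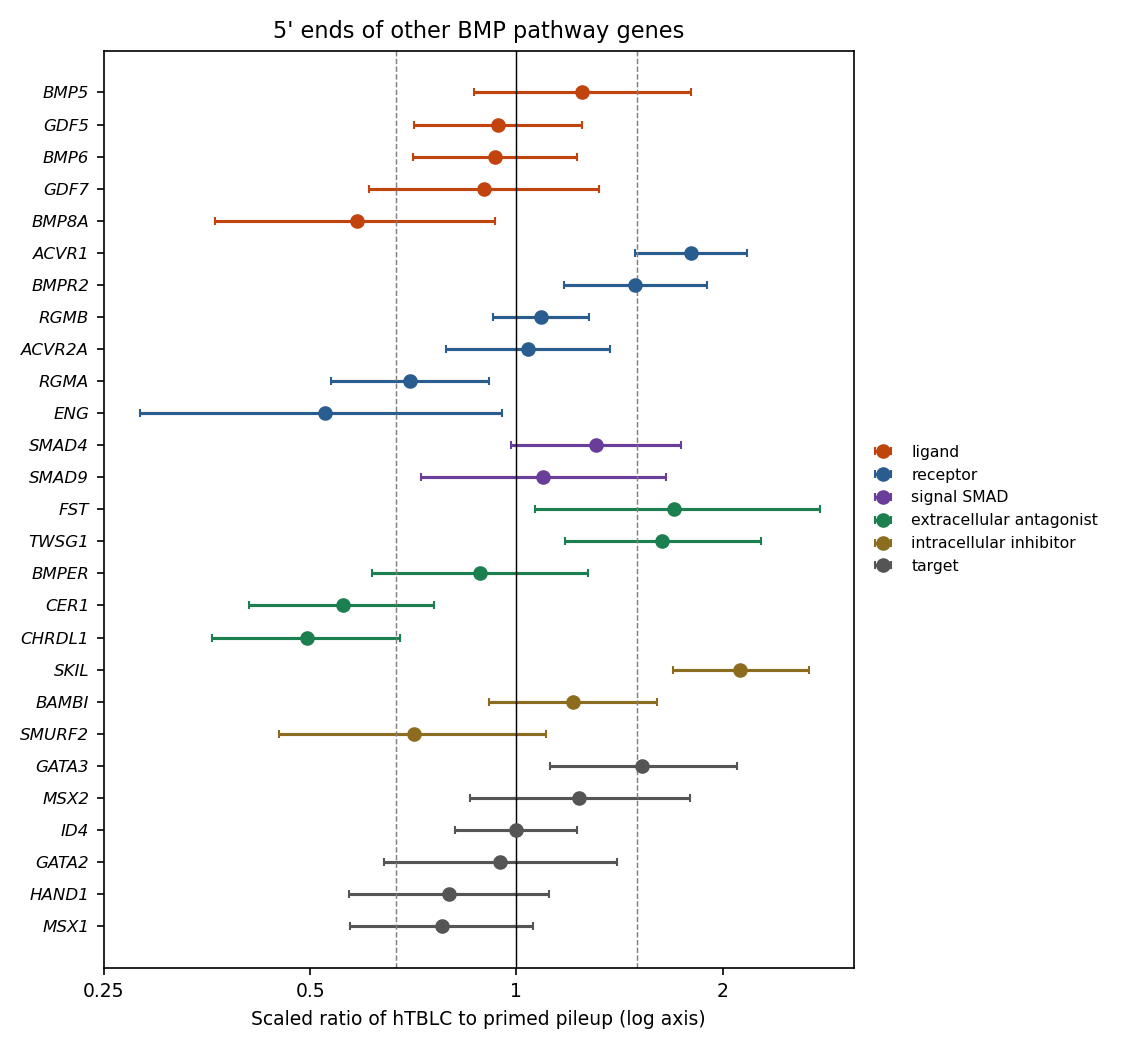
Scaled ratio of hTBLC to primed pileup at the 5′ end (horizontal axis, log scale) for the 27 other pathway genes whose strongest regions overlapped, grouped by role. Bars are exact binomial 95% intervals, the solid line is a ratio of 1 and dashed lines are 1.5-fold. SKIL at 2.12 and CHRDL1 at 0.50 are the extremes.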

How the data were processed

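Per the submitters' processing notes, Bowtie2, Picard and MACS2 were used on build hg38. Versions, settings, duplicate handling and any transposase shift are not given there. The authors deposited 1 peak list per library, so peaks were called separately. Per peak the authors deposited start, end and summit, a score that was not used, a fold ratio at the summit over local background, and the −log10 p and −log10 q-values. The lowest −log10 p was 2.83 in hTBLC and 2.00 in primed, so weak regions can be absent from hTBLC by threshold. Ranks without a line, 327 in hTBLC and 252 in primed, count as absent.

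Whole pileups were solved from fold, taken as pileup plus 1 over background plus 1, and the Poisson upper tail, for 99.998% of hTBLC and 99.999% of primed peaks within 0.001 in −log10 p. Ratios were divided by 1.09, the quotient of the most frequent backgrounds, since read totals were not analysed here. Peaks overlapping or touching on chromosomes 1 to 22 and X were merged. Joined loci combine all overlapping regions of both libraries, with the highest pileup of each. Genes came from a RefSeq table of GRCh38.p14, whose main chromosomes match hg38, and strands and starts from RefSeq promoter entries. These hold 8 of the 10 genes; for BMP2 and BMP7 the strand was taken from general knowledge. Computations used Python 3.11.15 with scipy 1.17.1, and the steps were tested on simulated data.

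Members and lists were chosen with earlier results of these data known. The text names all members, their strongest library-only and most extreme shared regions, and listed pathway genes with a 5′ region in 1 library or past 1.5-fold. Joined loci, regions described as level and additional library-only regions with −log10 q of at least 10 were chosen after their values were seen. Peaks within 2 kb inside the 50 kb limit had median pileups of 19.5 in hTBLC and 19 in primed, and those within 2 kb outside it 19.5 and 16.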

Additional observations from a re-analysis of the deposited data

How the results depend on the processing

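Over 13 alternative settings, of which 2 turned out to be the same, 164 values were recomputed. Of these, 132 stayed within 1.5 times the main count or within the main interval, 31 moved beyond it and 1 turned round. Turning round was judged only for ratios and hTBLC-only shares whose main interval excludes 1 or 50%. Other values could cross 1 or 50% without counting as turned. The BMP2 5′ ratio, for example, was 0.97 with scaling and 1.06 without. The turned value was the hTBLC-only share near the ID genes, 41.7% with both lists at a −log10 q of at least 10. This share was 90.9% with the nearest gene only and 55.8% within 100 kb. At a −log10 q of at least 5, hTBLC-only regions near the members numbered 28 and primed-only regions 40 (41.2% hTBLC-only), 78.6% of hTBLC regions were shared, the pathway share was 44.6%, and 2 pathway genes had a 5′ region in primed alone. At 10 the values were 23 and 32 (41.8%), 75.5% and 44.4%, 11 shared regions were lower, 1 member (BMP7) had no 5′ region in either list, and pathway 5′ regions were in hTBLC alone at 4, in primed alone at 2 and in neither at 8 genes. Requiring 50% reciprocal overlap left 106 primed-only regions, with 50.7% of hTBLC and 50.2% of primed regions shared, and sharing within 500 bp gave 72.0% of hTBLC regions. Within 10 kb, 27 hTBLC-only and 32 primed-only regions remained and 75.2% of hTBLC regions were shared, and within 100 kb there were 116 and 110. A 5′ window of 2500 bp left 0 pathway genes open in primed alone. Scaling to the median of all shared regions gave a factor of 1 and so repeats the values without scaling; in both, 9 shared regions near the members were higher and 2 pathway 5′ ends were lower. Except for the thresholds, the cause of these shifts was not tested. The joined loci were added after the data were seen. No paired analysis was possible because each state has 1 library. The lowest ratios, at BMP7 and BMP4, rest on hTBLC pileups of 7 and 8.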

Other observations

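Among the other listed pathway genes, the counts of library-only regions within 50 kb differed most, by the difference of the counts, at 4 genes, chosen here after their values were seen. The ligand gene BMP5 had 14 hTBLC-only regions and 1 primed-only region, with a 5′ ratio of 1.25 (0.87 to 1.80). The receptor gene ACVR1 had 5 hTBLC-only and 16 primed-only regions, although its 5′ end was higher in hTBLC. The receptor gene ACVR2A had 3 and 11, and the ligand gene BMP8A 2 and 11. Near all protein-coding genes, 48.9% of library-only regions were hTBLC-only. Few of these regions had a −log10 q of at least 10. Such hTBLC-only and primed-only regions numbered 4 and 0 at BMP5 and 1 and 2 at ACVR1. At ACVR2A they numbered 0 and 0, and at BMP8A 0 and 1.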
